A study of Mus musculus with 2 samples.

Results

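The complement components and regulators C1qa, C1qb, C1qc, C2, C3, C4b, Cfb, Cfp and Cd55 were described in mouse mammary gland at the start of involution, when the lactating gland regresses. The members were every probe set that the platform annotation assigns to 1 of these 9 symbols. Of 18193 genes with a probe set of their own on the array, 7 were members: C1qa, C1qb, C1qc, C2, Cfb, Cfp and Cd55, with 14 probe sets among them. C4b had no probe set of its own, since its only probe set is assigned jointly to C4a and C4b, and no probe set used here carries the symbol C3, which was not analysed here. The first group was mammary gland of CD1 females at day 1 of involution, and the other was gland of CD1 females at day 0, the time of forced weaning. The mice were bought at 6 weeks of age and mated with CD1 males, litters were set to 6 pups, and the pups were removed at day 10 of lactation. Each day is a pool of RNA from 5 mice on 1 array. There was thus no replicate error and no test, and every difference below is between 2 arrays. The number of arrays limits the precision.

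Complement is a cascade of plasma and tissue proteins that tags cells and debris for removal. C1q starts the classical pathway when its globular heads bind antibody or dying cells. C2 with C4b, and factor B (Cfb) with C3b, form the enzymes that cleave C3, properdin (Cfp) stabilises the factor B enzyme, and Cd55 takes these enzymes apart on the surface of host cells. In most tissues C1q is made largely by macrophages, whereas much of the circulating C3 and factor B comes from the liver.

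Values are MAS 5 signals, an intensity for each probe set on a linear scale, and a log2 ratio sets day 1 over day 0. A floor was placed at the median signal of the 2 arrays together, 77.7, lower signals were raised to it, and a gene counted as measured when either array exceeded it. All 7 genes were measured, and each of the 14 probe sets exceeded the floor on both days. Of 13239 measured genes, the median log2 ratio was -0.12. The 15 usable hybridisation controls, bacterial transcripts usually added in equal amount to each array, had a median of -1.16. Scaling on them raised the median of all genes by 1.03, so the ratios are best read against those of other genes. Of 13 luminal epithelial markers with a probe set 12 were measured, as were all 10 myoepithelial ones. In the mixed tissue, fewer cells of a type and less RNA per cell cannot be told apart.

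No member was at least 2-fold higher on day 1, and 2 of 7, C1qa and C2, were at least 2-fold lower. Neither count held under every scaling, since hybridisation control scaling gave 3 higher and 0 lower, and ribosomal protein scaling 1 higher and 0 lower. Over all genes, 6700 of 14388 were higher and 467 lower under the first, and 2337 and 1273 of 13492 under the second. As deposited, over all measured genes the 2-fold shares were 10.4% on the higher side and 13.3% on the lower side, shares at which 7 genes would hold 0.73 and 0.93 of a gene. Of the 7, 3 had a higher and 4 a lower signal on day 1, and 43.3% and 56.7% of all measured genes did. At 1.5-fold 2 were higher, C1qb and Cfp, and 3 lower, C1qa, C2 and Cfb, beside 20.4% and 27.2% of all measured genes. At 3-fold there were 0 in either direction, beside 3.85% and 4.33%. The median log2 ratio of the 7 was -0.33. The members ran from -1.23 for C1qa to 0.93 for Cfp, at percentiles 8.83 and 88.4 of all measured genes. The Cfp value rests on 1 of 2 probe sets that point in opposite directions. The members did not share 1 direction, and their count stands near the background.

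**Figure D1:**
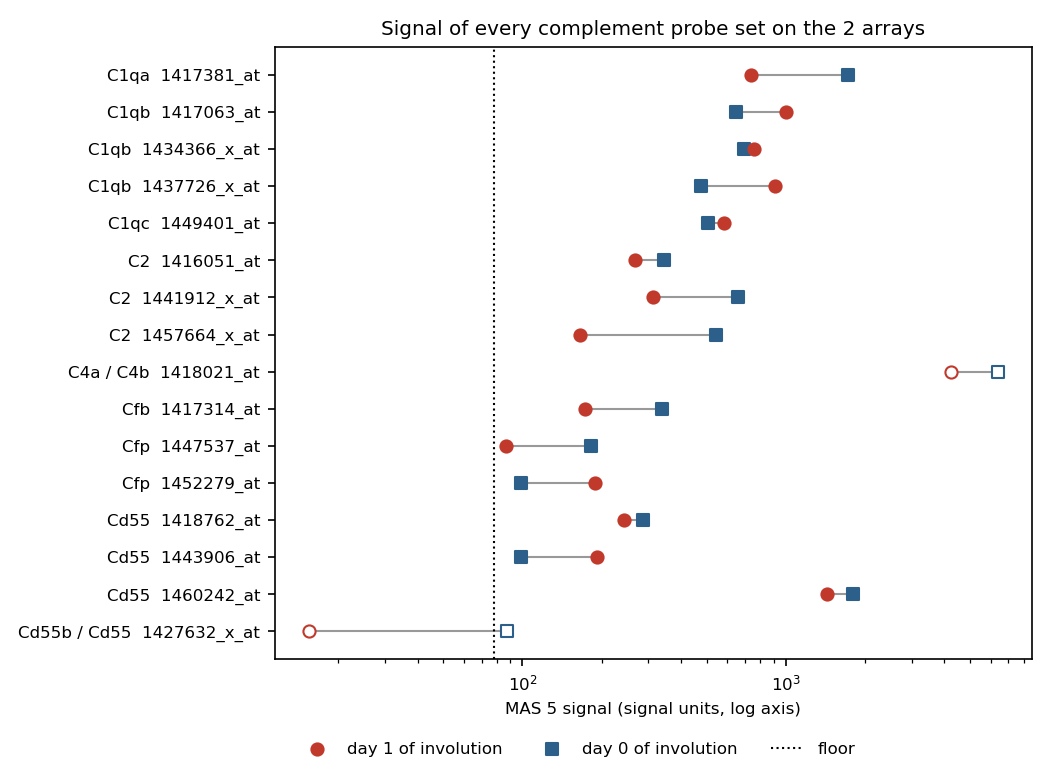
MAS 5 signal (log axis, signal units) of each complement probe set on the day 1 array (circles) and the day 0 array (squares), with hollow symbols for probe sets assigned to 2 genes and a dotted line at the floor of 77.7. The C1qa probe set lies lower on day 1 (736.5) than on day 0 (1729.5), while the 3 C1qb probe sets lie higher, and the 2 probe sets of Cfp point in opposite directions.

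Among the chains of C1q, the A chain differed in direction from the B and C chains as deposited. C1qa, the A chain, had a signal of 736.5 on day 1 against 1729.5 on day 0 (probe set 1417381_at, 2.35-fold lower). Its log2 ratio of -1.23 became -0.91 when scaled on ribosomal proteins and -0.069 when scaled on hybridisation controls, so the 2-fold call was lost under both. C1qb, the B chain, had 998.7 on day 1 against 646.6 on day 0 at its brightest probe set (1417063_at, 1.54-fold higher). The C chain gene C1qc had 584 on day 1 against 506.4 on day 0 (1449401_at, 1.15-fold higher). As deposited, the A chain signal was therefore lower and the B and C chain signals were higher on day 1.

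The other probe sets of C1qb lay on the same side as deposited. The signals were 909.8 on day 1 against 476.8 on day 0 at 1437726_x_at, 1.91-fold higher, and 756 against 695.6 at 1434366_x_at, 1.09-fold higher. The log2 ratio of this last probe set was -0.028 after loess and -0.0070 after quantile normalization. C1qa and C1qc had 1 probe set each. Among measured genes, the log2 ratio of C1qa was at percentile 8.83, that of C1qc at percentile 65.3 and that of C1qb at percentile 80.9.

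The log2 ratio of C1qb exceeded that of C1qa by 1.86, and that of C1qc exceeded it by 1.44. These gaps do not depend on a factor common to an array, and under all 8 scalings run, the deposited one included, they ranged from 1.86 to 1.87 and from 1.44 to 1.495. Probe sets of 1 gene can also differ. Of 2509 genes with exactly 2 probe sets that exceeded the floor on both days, 3.03% had log2 ratios at least 1.86 apart and 7.85% at least 1.44 apart. With 1 probe set for C1qa, no second probe set shows whether its ratio is that of the whole transcript. C1qa, C1qc and C1qb are neighbours on chromosome 4, with 0 other protein-coding genes between them in the RefSeq annotation of GRCm38.p6. The proteins join in a single complex.

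The start regions of C1qb and C1qc are shown because these neighbours lay on the same side. No start region of C1qa was available, so the chain with the lower signal could not be set beside them. Each is the RefSeq sequence of GRCm38.p6 with 250 bases before and 50 after the gene start, 5′ to 3′ on the minus strand. Capitals mark matches, on either strand, to GAGGAA, a core that Ets factors such as PU.1 of macrophages can bind.
C1qb, chr4:136886151-136886450: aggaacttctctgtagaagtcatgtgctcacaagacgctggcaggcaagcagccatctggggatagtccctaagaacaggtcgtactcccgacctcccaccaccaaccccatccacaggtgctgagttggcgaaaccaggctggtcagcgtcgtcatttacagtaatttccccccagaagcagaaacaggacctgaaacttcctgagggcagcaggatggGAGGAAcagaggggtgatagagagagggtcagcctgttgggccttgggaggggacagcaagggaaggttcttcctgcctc
C1qc, chr4:136892865-136893164: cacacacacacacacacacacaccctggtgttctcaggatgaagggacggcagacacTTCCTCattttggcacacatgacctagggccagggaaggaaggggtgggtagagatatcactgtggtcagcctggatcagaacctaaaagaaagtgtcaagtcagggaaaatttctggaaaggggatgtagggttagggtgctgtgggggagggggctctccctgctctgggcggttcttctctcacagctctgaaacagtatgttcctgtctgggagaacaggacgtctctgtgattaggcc
Each held 1 match, and 28.3% of the 32851 start regions of this length hold at least 1. The start regions of C3, Cfp and Cd55, not shown, had 0, 2 and 0 matches to this core. The match began 30 bases before the start in C1qb and 193 bases before it in C1qc, where it lies on the opposite strand. Other motifs were searched on both strands in the same way. The Stat form TTCNNNGAA had 0 matches in either sequence, and 8.30% of all start regions hold one. The AP-1 form TGANTCA had 0 matches, with 7.81% of start regions holding one. The TATA box, as TATAAA, likewise had 0 matches, with 13.6% of start regions holding one. The C/EBP form TTNNGNAA, which 40.7% of start regions hold, had 1 match in C1qc and 0 in C1qb. A match of letters is a description and does not show that a factor binds there.

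C2, the serine protease of the classical pathway, was lower on day 1 at all 3 of its probe sets. The brightest, 1441912_x_at, had 313.7 on day 1 against 655.7 on day 0 (2.09-fold lower). The others had 165.5 against 542.4 (1457664_x_at, 3.28-fold lower) and 267.4 against 344.4 (1416051_at, 1.29-fold lower). The _x_at probe sets can share probes with other transcripts. The probe set without that mark gave the smallest of the 3 differences, with a log2 ratio of -0.37. Under the scaling on hybridisation controls the log2 ratio of the brightest became 0.10, and the median of all genes became 0.91.

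Cfb, the protease of the alternative pathway and the neighbour of C2 on chromosome 17, had 172.6 on day 1 against 339.1 on day 0 at its only probe set (1417314_at). It was 1.96-fold lower, just under the 2-fold limit, and its log2 ratio of -0.97 differed from that of C2 by 0.09. It passed the limit after median centring (-1.07) and was at 0.19 under the scaling on hybridisation controls. The C2 and Cfb ratios were at percentiles 12.0 and 14.2 of all measured genes. The probe set assigned jointly to C4a and C4b (1418021_at) had 4219.8 on day 1 against 6365 on day 0. It was 1.51-fold lower, and the signal cannot be given to either gene. As deposited, each of the 5 probe sets of C2, Cfb and C4a with C4b was lower on day 1. Of the 5, 3 belong to C2, and 57.1% of all measured named probe sets were lower. Under the scaling on hybridisation controls 4 of the 5 were above 0, but each lay below the median of all measured genes, 0.91. The values were then 0.80, 0.10 and -0.55 log2 for C2 probe sets 1416051_at, 1441912_x_at and 1457664_x_at, 0.19 for Cfb and 0.57 for the joint probe set.

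Properdin gave no single direction. Of its probe sets, 1452279_at had 188.8 on day 1 against 98.8 on day 0 (1.91-fold higher), and 1447537_at had 86.7 on day 1 against 182.3 on day 0 (2.10-fold lower). Both came within 21.1 signal units of the floor on 1 of the arrays. The log2 ratios were 2.01 apart, a gap that 2.07% of the 2509 genes with exactly 2 such probe sets reached. The brighter probe set was used for the gene, so the Cfp value of 0.93 rests on that choice, and the mean of both was -0.07.

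Cd55, the decay-accelerating factor, had 1438.7 on day 1 against 1805.7 on day 0 at its brightest probe set (1460242_at, 1.26-fold lower). A second, 1418762_at, had 242.3 against 286.1 (1.18-fold lower), and the third, 1443906_at, had 192.4 against 98.7 (1.95-fold higher). The first 2 carry the same transcript accession in the annotation, and the third another. At the brightest probe set the log2 ratio was -0.33 as deposited and 0.84 under the scaling on hybridisation controls. The median of all genes was 0.91 under that scaling. As deposited, the mean over the 3 probe sets was 0.13. A probe set assigned to both Cd55b and Cd55 (1427632_x_at) had 15.5 on day 1, under the floor, against 87.2 on day 0. Across the 14 probe sets of the 7 genes, 6 were higher and 8 lower on day 1. The shares over all measured named probe sets were 42.9% and 57.1%. Past 2-fold, 0 of the 14 were higher and 4 lower, beside 9.86% and 12.6% of all measured named probe sets.

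**Figure D2:**
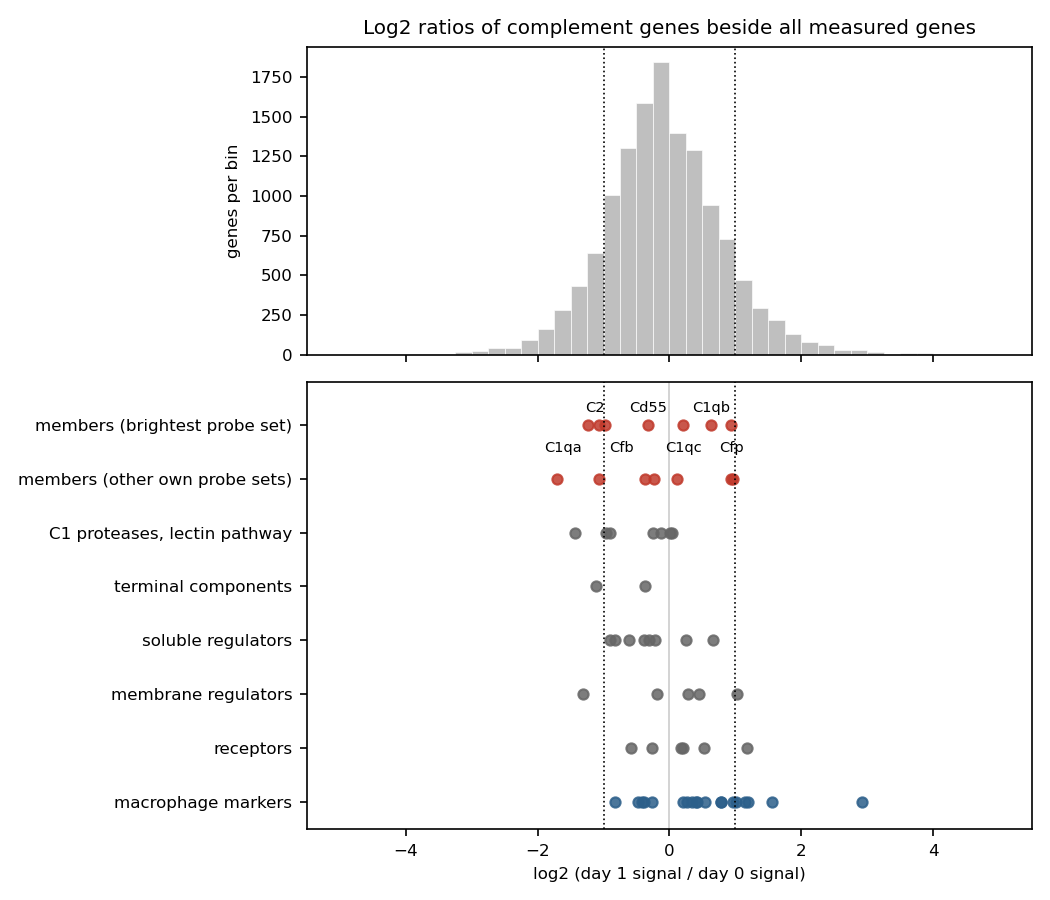
Upper panel, number of measured genes in bins of 0.25 log2 of the ratio of day 1 over day 0, with values beyond 5 in the end bins. Lower panel, the log2 ratio of each complement gene and macrophage marker, with dotted lines at 2-fold. C1qa, at -1.23, lies below all 19 macrophage markers, whose lowest value is -0.83 at the brightest probe set of each gene.

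Macrophage markers were set beside the C1q genes. Of 20 listed genes 19 were measured, all 19 of those with a probe set, with a median log2 ratio of 0.41 and a range of -0.83 to 2.93. Of these, 14 were higher and 5 lower on day 1, against 43.3% and 56.7% of all measured genes. Past 2-fold, 5 were higher and 0 lower, against 10.4% and 13.3% of all measured genes. The markers with a lower signal on day 1 were Adgre1 (-0.83 log2), Mertk (-0.48), Aif1 (-0.42), Laptm5 (-0.38) and Cd86 (-0.27, with day 1 under the floor). The list median stayed above 0 under all 8 scalings. The markers summed to 40408.8 signal units on day 1 and 11673.4 on day 0, and without Cd14 11398.2 on day 1 and 7856.6 on day 0. Cd14, a receptor for bacterial lipopolysaccharide, had 29010.6 on day 1 against 3816.8 on day 0, of which the day 1 value was 72.4% of the highest signal of its array. Lyz2, the lysozyme of macrophages and granulocytes, had 3280.3 against 1477.1. Cd14 and Lyz2 were named as the brightest of the list. C1qb and C1qc lay within the range of the list and C1qa below all of its measured genes, at the brightest probe set of each. The lowest probe sets of Csf1r and Laptm5, not the brightest, were nearer to C1qa, at -1.12 and -1.09 log2. The part of macrophage content in the C1q values was not tested.

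Liver markers, set beside C2 and factor B, were not above the floor. None of 11 hepatocyte genes with a probe set was measured, albumin (Alb) included, with 9.2 on day 1 and 27.6 on day 0. Neutrophils carry properdin, and 5 of 10 neutrophil genes with a probe set were measured, with a median log2 ratio of -0.39 as deposited, which was above 0 under 4 of the other scalings. That median is the value of Ltf, which is also a milk protein gene. S100a8, named after its value was seen, was at least 4.97-fold higher, with 386 on day 1 against 73.9, under the floor, on day 0. The list did not share this direction, as 2 of the 5 were higher and 3 lower, beside 43.3% and 56.7% of all measured genes. S100a9 was at 0.11 log2, Ngp at -0.83 and Csf3r, with day 1 under the floor, at a bound of -0.96. The part of neutrophil content in the Cfp values was not tested.

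Other genes of the pathway showed no common direction. Of 51 listed genes, 42 had a probe set and 28 were measured. On day 1, 2 were past 2-fold on the higher side and 3 on the lower. By the same rule 10.4% and 13.3% of all measured genes were called, so these counts are near the background. The list median was -0.24 log2 as deposited, and 0.13, 0.23 and 0.54 after quantile normalization, loess and hybridisation control scaling. The medians of all measured genes were -0.12 as deposited, and -0.02, 0.17 and 0.91 under these scalings in turn. C1rb, C1s2, C1rl, Cfd, C7, Cd59b and C5ar2 had no probe set of their own in the annotation used and were not analysed here.

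Among the proteases of C1 and the lectin pathway, 7 genes were measured, with 0 past 2-fold on the higher side and 1 on the lower. The shares over all measured genes were 10.4% and 13.3%. Masp1, a lectin pathway protease, had 54.6 on day 1 against 210.7 on day 0. It was at least 2.71-fold lower, since the day 1 signal was under the floor, and its other measured probe set gave a bound of -0.15 log2. The ficolin gene Fcna, which encodes a lectin that recognises sugars on microbes, had 334.5 on day 1 against 625.3 on day 0. Its log2 ratio was -0.90 as deposited and 0.26 after hybridisation control scaling, where the median of all genes was 0.91. Mbl2, Colec10 and Colec11 were under the floor on both arrays.

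Terminal components build the pore in the target membrane, and 2 of 6 with a probe set were measured. C9, which forms the ring of the pore, had 81 on day 1 against 175.9 on day 0 and was 2.17-fold lower, with the day 1 signal just above the floor. Its log2 ratio was 0.04 after hybridisation control scaling, where the median of all genes was 0.91. Hc, C6, C8a and C8b were under the floor on both arrays.

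Of 5 measured membrane regulators 3 were higher and 2 lower on day 1, beside 43.3% and 56.7% of all measured genes. Cd59a, which blocks the assembly of the pore, had 1905.7 on day 1 against 939.3 on day 0, 2.03-fold higher, and its other probe set had a log2 ratio of 1.49. Its log2 ratio lay above 0 under all 8 scalings but under 1 with both centrings, quantile normalization and loess. Susd4, a membrane protein with complement control domains, had 83.1 on day 1 against 205.9 on day 0 and was 2.48-fold lower, with the day 1 signal close to the floor. Its log2 ratio was -0.96 after quantile normalization, -0.91 after loess, -0.99 when scaled on ribosomal proteins and -0.15 when scaled on hybridisation controls, so the 2-fold call was lost under these 4. Cr1l, the rodent inhibitor Crry, had 853.9 on day 1 against 698.9 on day 0, a log2 ratio of 0.29. Cd55b, Csmd1 and Csmd2 were under the floor on both arrays.

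None of the 8 measured soluble regulators, 0 of 8, was shown past 2-fold at this floor. Of the 8, 3 were under the floor on day 1 and have only bounds. Past 2-fold, 10.4% of all measured genes were higher and 13.3% lower. Serping1, the C1 inhibitor, had 850 on day 1 against 539.6 on day 0, 1.58-fold higher. Clu, clusterin, which binds the forming pore, had 35205.8 on day 1 against 41014.3 on day 0, a log2 ratio of -0.22 as deposited that was above 0 after quantile normalization, loess, ribosomal protein and hybridisation control scaling. Across the 4 measured probe sets of Clu the log2 ratio as deposited ran from -0.66 to 0.09. The day 1 signal of the brightest was 87.8% of the highest on that array, a range in which signals can saturate. Its day 0 signal was 37.8% of the highest on the day 0 array. C1qbp, named for binding to the globular heads of C1q and mainly mitochondrial, had 8576.1 on day 1 against 7195.9 on day 0, a log2 ratio of 0.25. Cpn1 was under the floor on both arrays.

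Of the receptors, 6 of 9 with a probe set were measured. Itgb2, the beta chain of the complement receptors of leukocytes, had 416.3 on day 1 against 185.1 on day 0 and was 2.25-fold higher. Its log2 ratio was above 1 under all 8 scalings. The chaperone gene Calr, calreticulin, which can bind C1q, had 6218.4 on day 1 against 9338.2 on day 0. Its log2 ratio was -0.59 as deposited and 0.58 after hybridisation control scaling, where the median of all genes was 0.91. The receptor genes C5ar1, Itgam and Vsig4 were under the floor on both arrays.

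**Figure D3:**
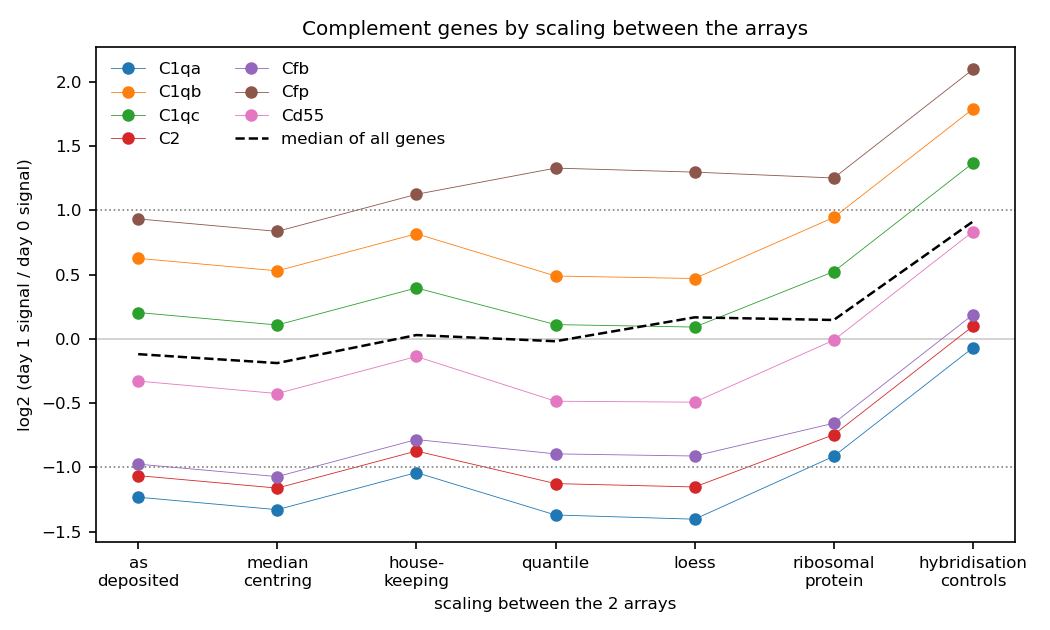
Log2 ratio of day 1 over day 0 for each complement gene as deposited and under 6 other scalings between the arrays, with the median of all measured genes dashed and dotted lines at 2-fold. The order of the 7 genes, with C1qa lowest and Cfp highest, is the same under each scaling. Hybridisation control scaling lifts C2 to 0.10, Cfb to 0.19 and the median of all genes to 0.91.

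The order of the 7 members by log2 ratio was the same under all 8 scalings, namely C1qa, C2, Cfb, Cd55, C1qc, C1qb and Cfp from the lowest. A common factor cannot alter this order, but quantile normalization and loess can. The choice of probe sets did alter it. With the mean of all probe sets, Cfp at -0.07 fell below Cd55 at 0.13. Without probe sets shared between transcripts, C2 at -0.37 lay above Cfb at -0.97. Neighbours in the order were often close. C2 and Cfb were 0.09 apart, and C1qb and C1qc 0.42, less than 0.56, the pooled SD of log2 ratios within genes that have several probe sets (3943 genes). The 3 probe sets of Cd55, of C2 and of C1qb spanned 1.29, 1.35 and 0.81 log2.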

How the data were processed

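Each pool of RNA from 5 mice was biotin-labelled and measured on 1 Affymetrix mouse array. The deposited values are MAS 5 signals, an intensity on a linear scale that the authors computed with the Affymetrix statistical algorithms, per the labels. No label names the scaling target. With 2% trimmed from either end, both arrays average 250, as a scaling by 1 factor an array would give. Detection calls were not used.

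Of 45101 probe sets, 64 were Affymetrix controls, 34945 had 1 gene symbol, 932 several and 9160 none. Symbols were updated by gene identifier to RefSeq (GRCm38.p6), which held 34741 of the 34945. Start regions of 5 of the 9 members are in the RefSeq table. Signals were floored at 77.7, the brightest probe set (highest mean signal) represented a gene, and a call was a 2-fold difference. No test was made, because there is 1 array a group. All 9 members were named, as were wider pathway genes at least 2-fold different, 6 of the rest by mean signal, and the brightest markers. Alternatives were median, quantile, loess (span 0.3), ribosomal protein, housekeeping and hybridisation control scaling, floors at the 25th and 75th percentile, a pseudocount of 16, the mean of probe sets, leaving out shared probe sets, and 1.5-fold and 3-fold limits. Centring the ratios was added after the data were examined. Members and lists were chosen with earlier results of these data known. Calling was tested on simulated data. Python 3.11.15, numpy 2.4.6, pandas 2.3.3, statsmodels 0.14.6 and matplotlib 3.10.9 were used.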

Additional observations from a re-analysis of the deposited data

How the results depend on the processing

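No paired analysis was possible because each day has 1 array of pooled RNA. Hybridisation control scaling gave log2 ratios of -0.069 for C1qa, 1.79 for C1qb, 1.37 for C1qc, 0.10 for C2, 0.19 for Cfb, 2.10 for Cfp and 0.84 for Cd55, with 0.10 for C2 probe set 1441912_x_at and 0.091 for Cfp probe set 1447537_at, both at least 2-fold lower as deposited. It also raised C2 1416051_at to 0.80 and Cd55 1418762_at to 0.92, from -0.37 and -0.24. The member median was then 0.84 and that of the wider list 0.54, beside 0.91 for all genes. At least 2-fold higher were 3 members and 11 wider genes, with 0 lower in each. Of all 14388 genes measured under that scaling, 6700 were higher and 467 lower. Without probe sets shared between transcripts, C2 was at -0.37 and 1 member was at least 2-fold lower, beside 1708 of 12765 genes. With the mean of all probe sets Cfp was at -0.069. Members at least 2-fold higher numbered 1 after housekeeping, loess, quantile and ribosomal protein scaling, against 0 as deposited, and 2 at 1.5-fold. Over all genes, 1907 of 13384, 2373 of 14317, 1496 of 12805 and 2337 of 13492 were higher under these scalings in turn. Members lower numbered 3 after median centring, 1 after housekeeping scaling, 0 after ribosomal protein scaling and 0 at 3-fold, against 2 as deposited. Over all genes, 1970 of 13180, 1453 of 13384 and 1273 of 13492 were lower under these scalings in turn. In the wider list, genes higher numbered 1 after either centring, quantile normalization or a floor at the 75th percentile, and 0 at 3-fold, against 2. The counts over all genes were 1162 of 13180 after median centring and 1314 of 13224 after centring the ratios. They were 1496 of 12805 after quantile normalization, 852 of 7850 at that floor and 3.85% at 3-fold, against 1374 of 13239. Wider genes lower numbered 9 at 1.5-fold, 0 at 3-fold, 13 with a floor at the 25th percentile and 0 at the 75th. They numbered 8 with a pseudocount of 16, and 1 after loess, quantile or ribosomal protein scaling, against 3. The count of lower genes over all genes moved too, with 27.2% at 1.5-fold and 4.33% at 3-fold. It was 4306 of 16547 with the floor at the 25th percentile, 606 of 7850 at the 75th and 3051 of 13239 with the pseudocount, against 1764 of 13239. After loess, quantile and ribosomal protein scaling it was 1327 of 14317, 1497 of 12805 and 1273 of 13492. Called genes with a higher signal, over all genes, were 43.8% as deposited, 37.1% after median centring, 49.98% after quantile normalization, 56.8% after housekeeping, 64.1% after loess, 64.7% after ribosomal protein and 93.5% after hybridisation control scaling. The cause of these changes was not tested. Over all alternatives C1qa ranged from -1.40 to -0.07, C1qb from 0.47 to 1.79 and C1qc from 0.09 to 1.37. Cfp was not measured with a floor at the 75th percentile. Cfp probe sets and 1443906_at of Cd55 had signals near the floor.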

Other observations

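Other cell type lists gave these log2 ratios of day 1 over day 0. Over all measured genes 10.4% were higher and 13.3% lower past 2-fold. The median of all measured genes was -0.12 as deposited and 0.91 after hybridisation control scaling. The median was 2.06 for 12 luminal epithelial markers, and past 2-fold 7 of them were higher and 2 lower. It was 0.22 for 10 myoepithelial markers, and 0 of the 10 passed 2-fold. The 12 fibroblast markers had 0.45, and 2 were higher and 0 lower past 2-fold. The 11 lymphocyte markers had 0.38, and 4 were higher and 2 lower. The 11 endothelial markers had -0.57 as deposited and 0.59 after hybridisation control scaling, and 1 was higher and 2 lower. The 9 adipocyte markers had -0.32 as deposited and 0.84 after that scaling, and 0 were higher and 1 lower. The brightest of these were Cd36, with 7169.1 on day 1 against 24096.8 on day 0, and Fabp4, with 15038.2 against 12869. Cd36 also serves fat uptake in milk-producing cells.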
